A study of Mus musculus with 24 samples.

Results

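The genes described here are 34 genes of cholesterol synthesis and its regulation, of sterol efflux and of fatty acid synthesis, measured in gliomas that mice developed after PDGFB was introduced into their brains. They were chosen by gene symbol, and all 34 were found among the 55938 genes of the deposited table. Every one of the 34 passed the filter on low counts in every comparison. They comprise 7 enzymes of the mevalonate steps, 11 enzymes of the squalene and sterol steps, 5 regulators of the SREBP transcription factors, the 3 efflux genes Abca1, Abcg1 and Apoe, 4 sterol receptors, transport and storage genes, and 4 enzymes of fatty acid synthesis. The mevalonate, squalene and sterol enzymes together are called the 18 synthesis enzymes.

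PDGFB, a growth factor, was delivered in utero to the telencephalic ventricles of mouse embryos, and 12 tumours were dissected, dissociated and sorted. Fluorescent cells are called glioma cells and cells without fluorescence are called surrounding cells, and polyA RNA of both was sequenced from each of the 12 tumours, which gave 24 libraries. The animals showed no symptoms (asymptomatic; tumours 3228A, 3228B and 3228D at 33 days after transduction and 3229B at 34 days), or they showed symptoms. The symptomatic animals were divided by the letters that end their labels into an early symptomatic group (3108C and 3108D at 43 days, 3109D at 50 days, 3145A at 35 days) and a late symptomatic group (3054A at 120 days, 3054B and 3054C at 175 days, 3057E at 100 days). Each of the 6 groups of population and stage held 4 libraries. All 24 libraries came from brains that received PDGFB, so the surrounding cells are not cells of a normal brain. Strain and sex are not given in the sources used here. Stage, day and the leading digits of the tumour code cannot be told apart. Values of a stage are given in the order in which its tumours are named here.

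Cells make cholesterol from acetyl-CoA through mevalonate, squalene and lanosterol. The transcription factor SREBP-2, the product of Srebf2, drives the genes of this route when sterols in the endoplasmic reticulum are low, and Scap and the Insig proteins couple its release to the sterol supply. When sterols or their oxidised forms are plentiful, the LXR receptors, products of Nr1h2 and Nr1h3, drive the export genes Abca1, Abcg1 and Apoe, and also Srebf1, whose product favours fatty acid synthesis. The brain makes its own cholesterol, since the blood-brain barrier keeps out that of the circulation. Oligodendrocytes need it for myelin, and astrocytes, and microglia in disease, are well known for releasing it on particles that carry apolipoprotein E.

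Promoter sequences were looked up because most synthesis enzymes were higher in glioma cells and the efflux genes were lower. RefSeq windows from 250 bases before to 50 bases after a gene's start (build GRCm38.p6) were at hand for 27 of the 34 genes, in 38 windows. The 5 shown are those of 3 mevalonate enzymes and of 2 efflux genes, read 5′ to 3′ on the gene's strand. Capitals mark CCAAT on either strand, the letters bound by the factor NF-Y that works beside SREBP, and TCACNCCAC, which matches a classical sterol response element.
Hmgcs1, chr13:119690101-119690400, plus strand: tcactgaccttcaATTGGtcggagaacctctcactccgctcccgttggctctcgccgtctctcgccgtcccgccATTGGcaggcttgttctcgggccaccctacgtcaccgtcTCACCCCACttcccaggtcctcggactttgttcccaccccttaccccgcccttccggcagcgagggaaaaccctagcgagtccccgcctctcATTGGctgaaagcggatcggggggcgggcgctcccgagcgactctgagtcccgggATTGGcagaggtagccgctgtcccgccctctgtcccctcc
Mvk, chr5:114444019-114444318, plus strand: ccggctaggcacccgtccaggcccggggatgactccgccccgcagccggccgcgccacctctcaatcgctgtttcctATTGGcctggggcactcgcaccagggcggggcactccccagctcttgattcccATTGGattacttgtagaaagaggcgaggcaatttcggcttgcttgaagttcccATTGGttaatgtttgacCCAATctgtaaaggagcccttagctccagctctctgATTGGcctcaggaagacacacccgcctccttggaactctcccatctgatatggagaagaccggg
Idi1, chr13:8885356-8885655, plus strand: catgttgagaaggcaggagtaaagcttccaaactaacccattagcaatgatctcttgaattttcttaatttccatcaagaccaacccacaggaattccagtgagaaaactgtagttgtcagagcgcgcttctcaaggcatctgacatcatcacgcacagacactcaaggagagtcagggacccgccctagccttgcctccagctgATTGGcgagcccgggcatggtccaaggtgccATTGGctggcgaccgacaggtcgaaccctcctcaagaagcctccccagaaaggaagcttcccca
Abca1, chr4:53159846-53160145, minus strand: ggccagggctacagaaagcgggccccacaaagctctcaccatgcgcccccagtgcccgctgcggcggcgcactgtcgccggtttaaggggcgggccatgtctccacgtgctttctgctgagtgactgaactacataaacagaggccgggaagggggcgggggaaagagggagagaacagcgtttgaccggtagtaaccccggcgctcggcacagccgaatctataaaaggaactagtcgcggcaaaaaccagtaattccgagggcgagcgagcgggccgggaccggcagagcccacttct
Apoe, chr7:19699139-19699438, minus strand, the first of 3 listed starts: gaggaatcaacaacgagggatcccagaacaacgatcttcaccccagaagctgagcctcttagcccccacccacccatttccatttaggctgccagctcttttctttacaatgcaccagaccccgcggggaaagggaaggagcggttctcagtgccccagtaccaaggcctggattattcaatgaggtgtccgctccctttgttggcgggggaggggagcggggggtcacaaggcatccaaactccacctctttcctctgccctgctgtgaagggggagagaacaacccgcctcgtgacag

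CCAAT was found in 14 of the 15 synthesis enzymes with a window, all but Acat2, and in neither of the 2 efflux genes with a window, Abca1 and Apoe. Of all 27025 genes with a window 41.1% held it, and of all 32851 windows 37.4%. TCACNCCAC was found in Hmgcs1 alone among the 27 genes with a window, where it lies 137 bases before the start. Of all genes 1.44% held it, and of all windows 1.24%. At that share most of the 27 genes would lack this spelling in any case, and looser spellings of the sterol element were not searched. Absence of TCACNCCAC therefore does not show that a window lacks a sterol response element. The other members, such as Sqle, Fdft1 and Fdps, had no window and were not searched. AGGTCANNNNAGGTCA, a strict spelling of the repeat to which LXR binds, was in none of the 27 genes and in 0.0152% of all windows. A spelling this rare would be missing from so few windows in any case. Looser spellings were not searched, so its absence does not show that a window lacks an LXR site. Both strands were searched, and no motif overlapped another in the windows shown. A match of letters describes the window and does not show that a factor binds there.

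Before the comparisons, libraries that stood apart are named. Totals ran from 9.08e+06 to 1.55e+07 expected counts per library. The female transcript Xist stood at 1611 CPM (counts relative to the library total, scaled by TMM factors) in glioma cells coded 3108D and at 2.10 CPM in the surrounding cells of that code. In code 3109D it stood at 1.90 CPM in glioma cells and 1102 CPM in surrounding cells, so the codes of these 2 tumours go against the data. Both belong to the early symptomatic group, so an exchange between them would leave the group means as they are and would change the pairing. Glioma cells of 3057E, sorted by a red label where the others were sorted by GFP, held 12 microglia markers at a summed 2085 CPM against 120 to 693 CPM in the other 11 glioma libraries. Surrounding cells of 3057E held these markers at 1805 CPM, the lowest of the 12 surrounding libraries. Glioma cells of 3145A had the highest level of all 12 glioma libraries for 18 of 18 synthesis enzymes, and its surrounding cells had the highest of 12 for 16 of 18.

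The first comparison asked how cholesterol genes differ between tumour cells and the cells around them. Synthesis enzymes were mostly higher in glioma cells and efflux genes lower. Of the 18 synthesis enzymes 14 were higher, 1 was lower and 3 did not pass the test, and all 3 efflux genes were lower. Over all 34 genes 18 were higher and 8 lower, where the test called 22% of all 18810 genes higher and 24.2% lower, 46.3% in either direction. The median log2 fold change was 0.73 over the synthesis enzymes, -1.63 over the efflux genes and 0.06 over all genes tested. Without 3057E 15 synthesis enzymes were higher, without 3145A 14, and without 3108D and 3109D 10, in fits that called 51%, 41.8% and 35.6% of all genes, and the 3 efflux genes were lower each time. In sorted bulk RNA, fewer cells of a type and less RNA per cell cannot be told apart.

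**Figure D1:**
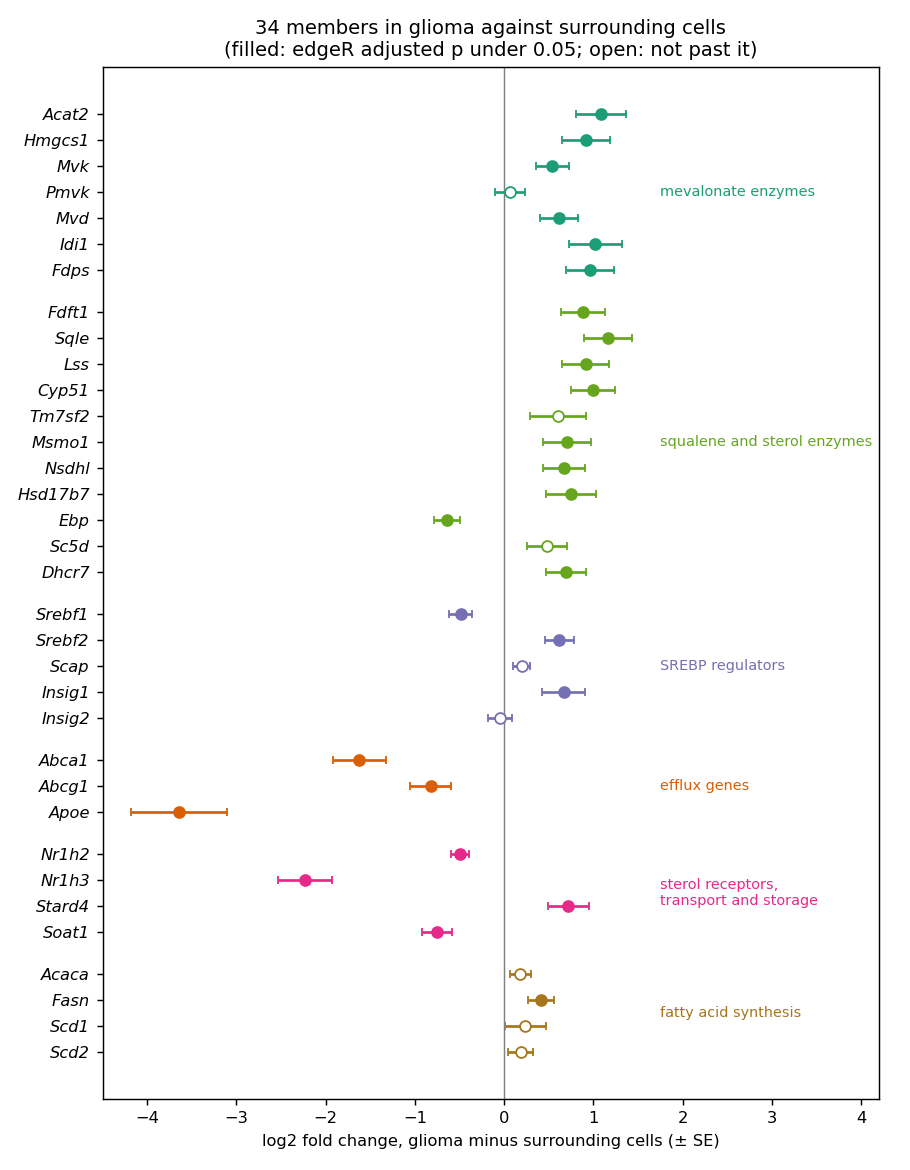
The log2 fold change of glioma against surrounding cells (horizontal axis, points with bars of 1 SE) is plotted for the 34 genes, grouped by role, with filled points for edgeR adjusted p under 0.05. The synthesis enzymes lie to the right of 0 except Ebp at -0.64, and the efflux genes lie to the left, with Apoe farthest at -3.64.

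The mevalonate enzymes turn acetyl-CoA into the isoprenoid unit from which sterols are built, and 6 of the 7 were higher in glioma cells. Acat2, the thiolase of the first step, stood in glioma cells at 75.7, 42.4, 76.7 and 75.5 CPM at the asymptomatic stage, 32.8, 90.98, 45.3 and 176 CPM at the early symptomatic stage and 50.03, 75.9, 90.9 and 46.05 CPM at the late symptomatic stage. In surrounding cells Acat2 stood at 36.95, 34.1, 45.8 and 38.6 CPM at the asymptomatic stage, 17.9, 24.7, 59.7 and 87.5 CPM at the early symptomatic stage and 16.2, 24.5, 12.6 and 36.2 CPM at the late symptomatic stage. Acat2 was higher in glioma cells of 11 of the 12 pairs, and 3 glioma libraries lay above every surrounding library. Its log2 fold change was 1.09 ± 0.28 (SE, edgeR adjusted p = 0.00279). Fdps, which joins isoprenoid units to farnesyl diphosphate, stood in glioma cells at 71.98, 41.2, 63.99 and 63.1 CPM at the asymptomatic stage, 57.2, 117, 43.04 and 237 CPM at the early symptomatic stage and 61.6, 97.6, 100.0 and 39.95 CPM at the late symptomatic stage. In surrounding cells Fdps stood at 44.7, 32.8, 42.4 and 48.9 CPM at the asymptomatic stage, 27.3, 26.6, 71.3 and 102 CPM at the early symptomatic stage and 20.9, 29.9, 22.8 and 43.98 CPM at the late symptomatic stage. The ranges of Fdps overlapped, the exceptions among the pairs being 3109D and 3057E, and its log2 fold change was 0.97 ± 0.27 (SE, edgeR adjusted p = 0.00561).

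Hmgcs1, which condenses acetoacetyl-CoA to HMG-CoA, ranged over 273 to 1048 CPM (median 441) in glioma cells and 76.4 to 618 CPM (median 238) in surrounding cells, with a log2 fold change of 0.92 ± 0.27 (SE, edgeR adjusted p = 0.00771). Idi1, the isomerase that readies the isoprenoid unit for joining, ranged over 66.7 to 299.9 CPM (median 125) and 24.01 to 172 CPM (median 57.2), with a log2 fold change of 1.02 ± 0.30 (SE, edgeR adjusted p = 0.00748). The kinases and the decarboxylase between them had smaller fold changes. Mvk, the first mevalonate kinase, stood in glioma cells at 18.6, 12.1, 20.4 and 16.98 CPM at the asymptomatic stage, 27.01, 23.1, 13.6 and 49.9 CPM at the early symptomatic stage and 13.1, 24.2, 22.6 and 15.8 CPM at the late symptomatic stage, and in surrounding cells at 16.7, 15.1, 14.5 and 17.7 CPM at the asymptomatic stage, 14.4, 12.8, 13.9 and 26.2 CPM at the early symptomatic stage and 8.91, 13.3, 8.996 and 14.5 CPM at the late symptomatic stage. Mvk was higher in glioma cells of 9 of the 12 pairs, with a log2 fold change of 0.54 ± 0.19 (SE, edgeR adjusted p = 0.022). Mvd, the decarboxylase, differed by 0.62 ± 0.21 (SE, edgeR adjusted p = 0.0204). Pmvk, the second kinase, did not pass the test at 0.07 ± 0.17 (SE, edgeR adjusted p = 0.757), and its log2 fold change was -0.0591 without 3108D and 3109D.

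The squalene and sterol enzymes build and trim the ring system, and 8 of the 11 were higher in glioma cells. Sqle, the squalene epoxidase that is a rate-limiting oxygen-dependent step, stood in glioma cells at 157, 107, 156 and 160.2 CPM at the asymptomatic stage, 103, 192, 120.0 and 319 CPM at the early symptomatic stage and 132, 189, 144 and 111 CPM at the late symptomatic stage. In surrounding cells Sqle stood at 86.99, 80.7, 98.6 and 57.2 CPM at the asymptomatic stage, 31.97, 77.2, 119 and 177 CPM at the early symptomatic stage and 28.6, 42.8, 13.97 and 86.4 CPM at the late symptomatic stage. Sqle was the 1 synthesis enzyme that was higher in glioma cells of all 12 pairs as coded, although the populations overlapped, and its log2 fold change was 1.17 ± 0.27 (SE, edgeR adjusted p = 0.00122). With the surrounding codes of 3108D and 3109D exchanged, 9 of the 18 synthesis enzymes were higher in all 12 pairs. Sqle lies on chromosome 15 (chr15:59315077-59331192, plus strand, GRCm38). Cyp51, the demethylase of lanosterol, stood in glioma cells at 183, 114, 158 and 158 CPM at the asymptomatic stage, 97.5, 195, 108 and 369 CPM at the early symptomatic stage and 112, 175, 159.6 and 89.9 CPM at the late symptomatic stage. In surrounding cells Cyp51 stood at 113, 84.1, 103 and 113 CPM at the asymptomatic stage, 47.7, 65.7, 115 and 188 CPM at the early symptomatic stage and 27.6, 46.3, 31.6 and 86.1 CPM at the late symptomatic stage. Its 3 lowest values were those of late surrounding cells (3054A, 3054B and 3054C), and its log2 fold change was 0.996 ± 0.25 (SE, edgeR adjusted p = 0.00224).

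Fdft1, the squalene synthase that commits the route to sterols, ranged over 54.2 to 192 CPM (median 82.5) in glioma cells and 22.6 to 106 CPM (median 49.7) in surrounding cells, with a log2 fold change of 0.88 ± 0.24 (SE, edgeR adjusted p = 0.00491). Lss, which closes the rings to lanosterol, ranged over 35.5 to 203 CPM (median 76.1) and 12.2 to 119.7 CPM (median 41.3), with a log2 fold change of 0.91 ± 0.26 (SE, edgeR adjusted p = 0.00726). The later enzymes had smaller fold changes. The log2 fold change was 0.71 ± 0.27 for Msmo1, the methyl sterol oxidase, 0.68 ± 0.24 for Nsdhl and 0.75 ± 0.28 for Hsd17b7, which act with it in removing methyl groups, and 0.70 ± 0.22 for Dhcr7, a final reductase (SE each). These 4 passed the test, while Tm7sf2, a sterol reductase, at 0.61 ± 0.31 (SE, edgeR adjusted p = 0.117) and Sc5d, a desaturase, at 0.48 ± 0.22 (SE, edgeR adjusted p = 0.0801) did not. With the tumour as a block both passed, Tm7sf2 at 0.51 and Sc5d at 0.49 (edgeR adjusted p = 0.0435 and 0.00939). Without 3108D and 3109D, Mvd, Msmo1, Nsdhl and Hsd17b7 did not pass, at log2 fold changes of 0.56, 0.68, 0.66 and 0.72.

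Ebp, the sterol isomerase that shifts a double bond late in the route, went the other way from the rest. In glioma cells Ebp stood at 17.6, 12.3, 13.1 and 19.7 CPM at the asymptomatic stage, 11.2, 15.1, 17.1 and 23.2 CPM at the early symptomatic stage and 21.7, 16.9, 20.97 and 14.9 CPM at the late symptomatic stage. In surrounding cells Ebp stood at 24.6, 23.5, 24.2 and 21.8 CPM at the asymptomatic stage, 24.5, 17.8, 25.2 and 21.6 CPM at the early symptomatic stage and 36.6, 41.5, 48.6 and 18.97 CPM at the late symptomatic stage. Ebp was lower in glioma cells of 11 of 12 pairs, with a log2 fold change of -0.64 ± 0.15 (SE, edgeR adjusted p = 0.00103), and 3054A, 3054B and 3054C held the 3 highest surrounding values.

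The 2 genes for SREBP factors differed in opposite directions. Srebf2, which codes for the driver of the sterol genes, stood in glioma cells at 255, 208, 271 and 221 CPM at the asymptomatic stage, 251, 259.8, 195 and 423 CPM at the early symptomatic stage and 178, 265, 246 and 159 CPM at the late symptomatic stage. In surrounding cells Srebf2 stood at 178, 170.1, 208 and 134 CPM at the asymptomatic stage, 125, 170.1, 188 and 276 CPM at the early symptomatic stage and 106, 123, 80.4 and 191 CPM at the late symptomatic stage. Srebf2 was higher in glioma cells of 11 of 12 pairs, with a log2 fold change of 0.62 ± 0.16 (SE, edgeR adjusted p = 0.00326). Srebf1, the factor of fatty acid synthesis that LXR induces, stood in glioma cells at 51.1, 47.3, 48.3 and 45.2 CPM at the asymptomatic stage, 122, 63.9, 49.3 and 89.2 CPM at the early symptomatic stage and 62.1, 91.9, 77.3 and 73.2 CPM at the late symptomatic stage. In surrounding cells Srebf1 stood at 97.95, 82.8, 80.5 and 59.1 CPM at the asymptomatic stage, 114, 97.6, 90.1 and 120.4 CPM at the early symptomatic stage and 96.1, 98.6, 93.1 and 113 CPM at the late symptomatic stage. Srebf1 was lower in glioma cells of 11 of 12 pairs, with a log2 fold change of -0.49 ± 0.13 (SE, edgeR adjusted p = 0.00347), and its 4 asymptomatic glioma values lay below all 12 surrounding values. Insig1, an SREBP target whose product holds Scap in the endoplasmic reticulum, was higher by 0.67 ± 0.24 (SE, edgeR adjusted p = 0.0267). Its relative Insig2 did not pass at -0.05 ± 0.13 (SE, edgeR adjusted p = 0.806). Scap, the escort of the SREBPs, did not pass at 0.20 ± 0.09 (SE, edgeR adjusted p = 0.091), but passed with the tumour as a block at 0.21 (edgeR adjusted p = 0.0484).

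All 3 efflux genes were lower in glioma cells. Apoe, the lipoprotein that takes up exported cholesterol (chr7:19696109-19699188, minus strand, GRCm38), stood in glioma cells at 442, 589.9, 338 and 650.2 CPM at the asymptomatic stage, 413, 276, 379 and 128 CPM at the early symptomatic stage and 93.7, 164, 196 and 3394 CPM at the late symptomatic stage. In surrounding cells Apoe stood at 5668, 4677, 2441 and 4391 CPM at the asymptomatic stage, 12898, 2468, 3995 and 2262 CPM at the early symptomatic stage and 13915, 9509, 23796 and 3097 CPM at the late symptomatic stage. Outside 3057E the populations did not overlap, and in 3057E both libraries stood at the level of the lower surrounding libraries. The log2 fold change of Apoe was -3.64 ± 0.54 (SE, edgeR adjusted p = 1.06e-05). Abca1, the pump that loads cholesterol on apolipoproteins (chr4:53030787-53159895, minus strand), stood in glioma cells at 152, 315, 161 and 209 CPM at the asymptomatic stage, 485, 169, 313 and 102 CPM at the early symptomatic stage and 115, 95.1, 125 and 463 CPM at the late symptomatic stage. In surrounding cells Abca1 stood at 554, 783, 554 and 289 CPM at the asymptomatic stage, 1076, 632, 639.7 and 462 CPM at the early symptomatic stage and 1144, 954, 1056 and 419 CPM at the late symptomatic stage. Abca1 was lower in glioma cells of 11 of 12 pairs, the exception being 3057E, and its log2 fold change was -1.63 ± 0.30 (SE, edgeR adjusted p = 0.000122).

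Abcg1, the exporter that passes cholesterol to formed lipoprotein particles (chr17:31057675-31117988, plus strand), stood in glioma cells at 100.2, 114, 104 and 83.3 CPM at the asymptomatic stage, 129.7, 119, 173 and 119 CPM at the early symptomatic stage and 62.5, 51.2, 46.8 and 238 CPM at the late symptomatic stage. In surrounding cells Abcg1 stood at 209, 220.1, 161 and 70.98 CPM at the asymptomatic stage, 228, 255, 214 and 164 CPM at the early symptomatic stage and 271, 170.2, 196 and 233 CPM at the late symptomatic stage. Abcg1 was lower in glioma cells of 10 of 12 pairs, the exceptions being 3229B and 3057E, and its log2 fold change was -0.82 ± 0.23 (SE, edgeR adjusted p = 0.00582).

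**Figure D2:**
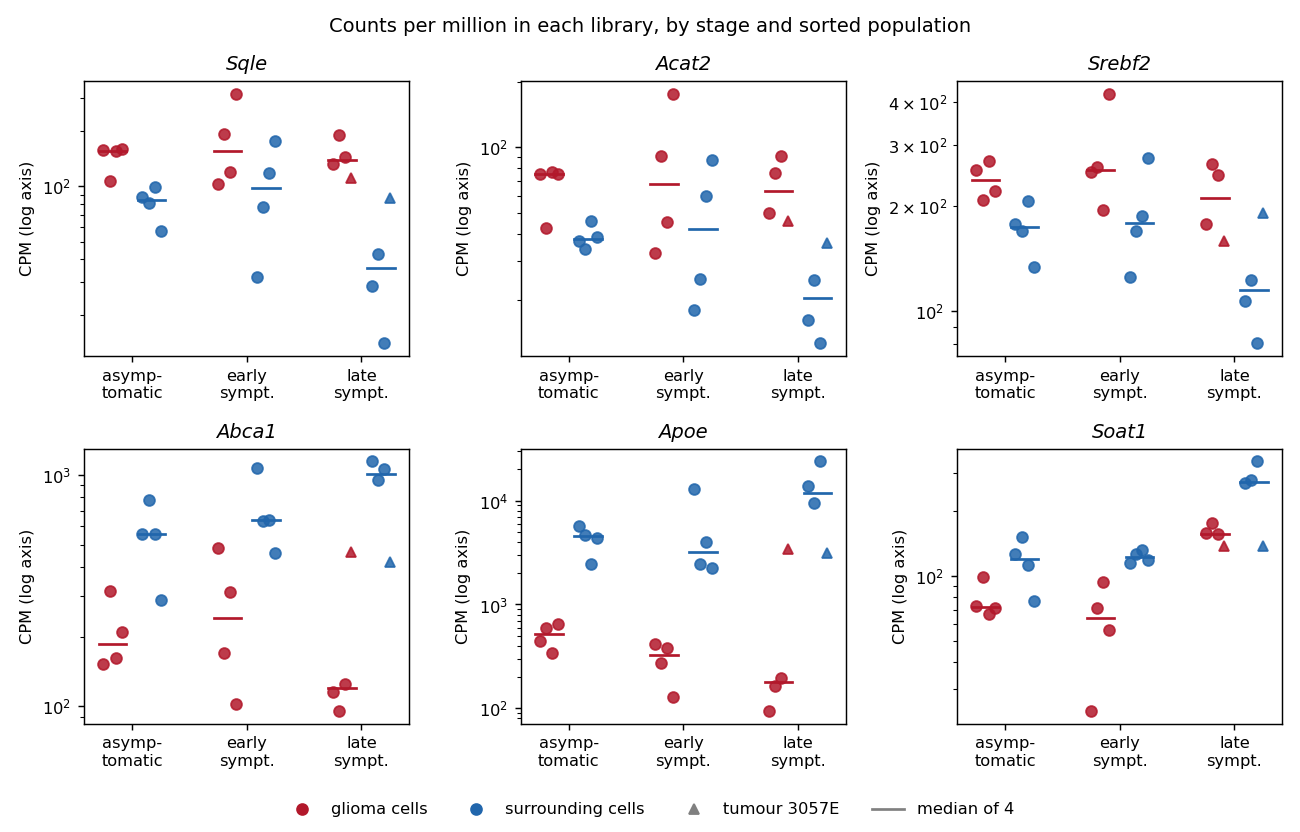
Each panel plots the CPM of 1 gene on a log axis for the 24 libraries by stage, with glioma cells in red, surrounding cells in blue, triangles for tumour 3057E and bars for the median of 4. Sqle, Acat2 and Srebf2 sit higher in red, Abca1, Apoe and Soat1 sit higher in blue, and the red triangle of 3057E lies among the blue points for Apoe at 3394 CPM.

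Of the sterol receptors, Nr1h3, which codes for LXR alpha, was scarce in glioma cells at 0.37, 0.83, 0.711 and 0.798 CPM at the asymptomatic stage, 0.597, 0.503, 1.27 and 1.10 CPM at the early symptomatic stage and 0.255, 0.63, 0.528 and 1.24 CPM at the late symptomatic stage. In surrounding cells Nr1h3 stood at 3.54, 6.67, 1.24 and 2.84 CPM at the asymptomatic stage, 1.52, 2.80, 1.71 and 1.60 CPM at the early symptomatic stage and 4.87, 4.35, 11.8 and 4.61 CPM at the late symptomatic stage. The highest glioma value, 1.27 CPM in 3109D, barely passed the lowest surrounding value, 1.24 CPM in 3228D, and Nr1h3 was lower in glioma cells of all 12 pairs, with a log2 fold change of -2.23 ± 0.31 (SE, edgeR adjusted p = 3.41e-06). Nr1h2, which codes for LXR beta, stood in glioma cells at 25.9, 27.4, 26.5 and 24.02 CPM at the asymptomatic stage, 25.6, 29.9, 30.7 and 24.5 CPM at the early symptomatic stage and 23.5, 29.8, 30.1 and 31.3 CPM at the late symptomatic stage. In surrounding cells Nr1h2 stood at 36.7, 41.4, 37.4 and 34.2 CPM at the asymptomatic stage, 44.03, 30.8, 32.1 and 27.97 CPM at the early symptomatic stage and 45.2, 50.3, 59.5 and 32.6 CPM at the late symptomatic stage. Nr1h2 too was lower in glioma cells of all 12 pairs, with a log2 fold change of -0.49 ± 0.10 (SE, edgeR adjusted p = 0.000441), and it has a pseudogene with which reads may be shared.

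Soat1, the enzyme that esterifies cholesterol for storage in droplets (chr1:156424525-156474331, minus strand), stood in glioma cells at 73.1, 98.7, 66.99 and 71.3 CPM at the asymptomatic stage, 23.8, 71.4, 93.9 and 56.5 CPM at the early symptomatic stage and 158, 176, 157 and 138 CPM at the late symptomatic stage. In surrounding cells Soat1 stood at 127, 152, 112 and 77.2 CPM at the asymptomatic stage, 115, 127, 132 and 118 CPM at the early symptomatic stage and 269, 278, 339 and 138 CPM at the late symptomatic stage. Soat1 was lower in glioma cells of all 12 pairs, with a log2 fold change of -0.75 ± 0.17 (SE, edgeR adjusted p = 0.000983), and in both populations its highest values came from the late stage. Stard4, a carrier that moves sterol to the endoplasmic reticulum and is a known SREBP target, ranged over 28.1 to 102 CPM (median 36.9) in glioma cells and 13.3 to 70.2 CPM (median 24.9) in surrounding cells. Stard4 was higher in glioma cells, by 0.72 ± 0.23 (SE, edgeR adjusted p = 0.0142), and it fell short without 3108D and 3109D (0.68, edgeR adjusted p = 0.0526).

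Of the 4 enzymes of fatty acid synthesis Fasn was higher in glioma cells and the other 3 did not pass the test. Fasn, the fatty acid synthase, stood in glioma cells at 446, 409, 404 and 288 CPM at the asymptomatic stage, 502, 413, 384 and 522 CPM at the early symptomatic stage and 311, 331, 338 and 297 CPM at the late symptomatic stage. In surrounding cells Fasn stood at 260.4, 370.2, 346 and 149 CPM at the asymptomatic stage, 344, 369.6, 348 and 409.6 CPM at the early symptomatic stage and 229.7, 245, 139.7 and 337 CPM at the late symptomatic stage. Fasn was higher in glioma cells of 11 of 12 pairs, by 0.42 ± 0.14 (SE, edgeR adjusted p = 0.0224), and fell short without 3145A (0.37, edgeR adjusted p = 0.0547). Acaca, which makes the malonyl-CoA that Fasn uses, stood in glioma cells at 119.6, 117, 114 and 81.1 CPM at the asymptomatic stage, 131, 135, 120.2 and 119 CPM at the early symptomatic stage and 121, 113, 99.4 and 87.98 CPM at the late symptomatic stage, and in surrounding cells at 82.9, 99.4, 93.1 and 55.9 CPM at the asymptomatic stage, 112, 113, 125 and 132 CPM at the early symptomatic stage and 110.2, 133, 63.3 and 97.2 CPM at the late symptomatic stage. The populations overlapped over most of their range, and Acaca did not pass at 0.18 ± 0.12 (SE, edgeR adjusted p = 0.207). Scd1, a desaturase, stood in glioma cells at 210.0, 149.6, 225 and 234 CPM at the asymptomatic stage, 196, 250.4, 177 and 336 CPM at the early symptomatic stage and 232, 293, 284 and 146 CPM at the late symptomatic stage, and in surrounding cells at 132, 144, 169.6 and 528 CPM at the asymptomatic stage, 221, 166, 267 and 251 CPM at the early symptomatic stage and 127, 162, 58.9 and 180.1 CPM at the late symptomatic stage. Scd1 did not pass at 0.24 ± 0.23 (SE, edgeR adjusted p = 0.407), and its highest value came from surrounding 3229B, which also held 12 markers of mature oligodendrocytes at a summed 32203 CPM against 3479 to 10556 CPM in the other surrounding libraries. Scd2, the desaturase that dominates in brain, ranged over 1663 to 2951 CPM (median 2061) in glioma cells and 773 to 2934 CPM (median 1887) in surrounding cells and did not pass either, at 0.19 ± 0.14 (SE, edgeR adjusted p = 0.296).

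Levels of different genes were set side by side per kilobase of exon. The length counts the exons of every annotated transcript of a gene, so the comparison is rough. Hmgcs1 was the most abundant synthesis enzyme in both populations, at a mean of 101.7 CPM per kb in glioma cells and 56.7 in surrounding cells. Cyp51 followed with 36.2 and 19.3 CPM per kb, close to Idi1 with 35.5 and 18.7, and Tm7sf2 was lowest with 1.67 and 1.09. Srebf2 stood at 34.0 CPM per kb in glioma and 22.6 in surrounding cells, and Srebf1 at 12.1 and 16.9. Apoe stood at 275 CPM per kb in glioma and 3474 in surrounding cells, the highest of the 34 genes in surrounding cells, while Scd2 was the highest in glioma cells at 378. Nr1h2 exceeded Nr1h3 in both populations, at 8.18 against 0.292 CPM per kb in glioma and 11.7 against 1.58 in surrounding cells.

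Other genes of the same pathways were counted from lists that are not part of the 34, beside 22% of all genes called higher and 24.2% called lower in this comparison. Of 14 other SREBP targets 13 were tested, and 8 were higher in glioma cells and 0 lower. The smallest p-values among them belonged to Me1, which supplies NADPH (log2 fold change 1.11 ± 0.17), the fatty acid elongase Elovl6 (1.05 ± 0.22) and Ggps1, which makes a longer isoprenoid (0.43 ± 0.10, SE each). Of 5 other LXR targets all 5 were lower, among them Mylip, which degrades lipoprotein receptors (-4.02 ± 0.38), the phospholipid transfer protein Pltp (-4.54 ± 0.47) and the phospholipid remodelling enzyme Lpcat3 (-0.90 ± 0.14). Of 11 genes of cholesterol handling 5 were lower and 0 higher, a share near the 46.3% of all genes called in either direction, and the lower ones included the sterol hydroxylase Cyp27a1 (-3.89 ± 0.36), the lysosomal carrier Npc2 (-2.15 ± 0.22) and the apolipoprotein Apod (-4.79 ± 0.62).

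Markers of cell types moved with these groups. All 12 microglia markers were lower in glioma cells, and their summed level ran from 120 to 2085 CPM in glioma and from 1805 to 16157 CPM in surrounding libraries. All 12 mature oligodendrocyte markers were lower too (437 to 3514 against 3479 to 32203 CPM), as were 9 of 10 monocyte and macrophage markers with 1 higher (31.4 to 503 against 272 to 5030 CPM), 9 of 10 endothelial markers (18.3 to 134.0 against 109 to 326 CPM) and 6 of 10 astrocyte markers (844 to 2543 against 261 to 6092 CPM). OPC (oligodendrocyte precursor) markers were higher in 8 of 10 (10952 to 18368 against 686 to 13351 CPM), mitosis markers in 12 of 12 (309 to 4234 against 324 to 992 CPM) and neuron markers in 3 of 10. No marker was at 0 in all libraries of a population. The microglial gene Tmem119 ran from 0.583 to 29.1 CPM in glioma cells and from 34.1 to 482 CPM in surrounding cells, and the OPC gene Pdgfra from 2674 to 5779 and from 138 to 3848 CPM, so the surrounding cells also held OPC transcripts. The part of these cell types in the differences of synthesis and efflux genes was not tested.

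Within single stages, with 4 libraries per group, fewer genes were called. In the asymptomatic stage 3 of the 34 genes were called, all lower in glioma cells: Apoe (-3.06 ± 0.91), Nr1h3 (-2.35 ± 0.53) and Srebf1 (-0.71 ± 0.22), where 13.8% of all genes were called, 12.5% lower and 1.3% higher. In the early symptomatic stage Apoe (-4.17 ± 0.96) and Soat1 (-0.99 ± 0.30, SE each) were lower, against 13.5% of all genes called, 12.4% lower and 1.06% higher. No synthesis enzyme was called in either stage, and at an unadjusted p under 0.05 edgeR gave 1 in the asymptomatic and 4 in the early symptomatic stage. Counts at an unadjusted p are given here and below without the share of all genes at that threshold, so they cannot be judged against it. The median log2 fold change of the synthesis enzymes was 0.52 in the asymptomatic and 0.78 in the early symptomatic stage, against 0.02 and 0.08 over all genes tested, and that of the efflux genes was -1.34 and -1.37. With the tumour as a block 4 genes were called in the early symptomatic stage, where that fit called 15.3% of all genes. With the codes of 3108D and 3109D exchanged in the block 12 were called, 8 of them synthesis enzymes, where it called 17.1%. The call of Apoe was lost in both stages without 3108D and 3109D (edgeR adjusted p = 0.0505 and 0.0691), and that of Soat1 without 3145A (edgeR adjusted p = 0.0964). At the asymptomatic stage 1 gene was called without 3228A, 3228B or 3228D (7.78%, 9.52% and 10.2% of all genes) and 7 without 3057E (18.2%). At the early symptomatic stage 1 was called without 3108C, 3108D or 3145A (8.95%, 10.6% and 9.78% of all genes).

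In the late symptomatic stage 15 of the 34 genes were called, 9 higher and 6 lower in glioma cells, where 35.3% of all genes were called, 15.4% higher and 19.9% lower. The higher genes were Sqle (1.74 ± 0.47), Acat2 (1.55 ± 0.49), Idi1 (1.52 ± 0.52), Cyp51 (1.48 ± 0.43), Fdps (1.34 ± 0.47), Fdft1 (1.34 ± 0.42), Hmgcs1 (1.28 ± 0.47), Lss (1.22 ± 0.46) and Srebf2 (0.76 ± 0.28). The lower genes were Apoe (-3.70 ± 0.94), Nr1h3 (-3.25 ± 0.54), Abca1 (-2.16 ± 0.52), Abcg1 (-1.13 ± 0.40), Ebp (-0.97 ± 0.25) and Nr1h2 (-0.71 ± 0.18, SE each, n = 4 libraries per group). The synthesis enzymes had a median of 0.92 and the efflux genes of -2.16, against 0.04 over all genes tested. With the tumour as a block 23 of the 34 genes were called, 14 of them synthesis enzymes higher in glioma cells, in a fit that called 44.7% of all genes. The count was 6 without 3054A, 5 without 3054B, 6 without 3054C and 18 without 3057E, where 22.5%, 21.9%, 23.3% and 42.8% of all genes were called. With all 24 libraries edgeR called none of the 34 genes, nor any other gene (0%), in the tests of whether the difference between populations changed with the stage. At an unadjusted p under 0.05 edgeR gave 1 of the 34 genes for late against early symptomatic, Nr1h3 at -2.15 ± 0.73, and 0 for the other 2 differences. For late against early symptomatic, late symptomatic against asymptomatic and early symptomatic against asymptomatic DESeq2 called 0 of the 34 in each, with 43, 18 and 1 of all genes. Limma voom called 2, 1 and 0 of the 34, with 5.98%, 6.84% and 0% of all genes. Without 3057E edgeR called 2, 3 and 0 of the 34, with 4.51%, 7.45% and 0% of all genes.

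**Figure D3:**
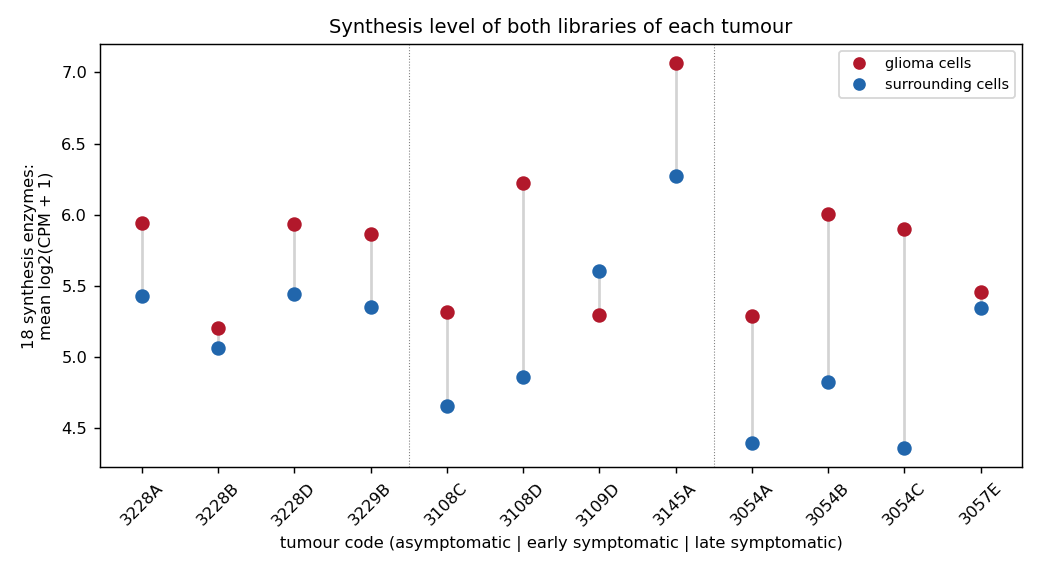
The mean log2(CPM + 1) of the 18 synthesis enzymes (vertical axis) is plotted for the glioma (red) and surrounding (blue) library of each of the 12 tumours, ordered by stage. Red lies above blue in every tumour but 3109D, whose pairing as coded goes against Xist. Both libraries of 3145A lie highest of their population, at 7.06 and 6.27.

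A synthesis level, the mean log2(CPM + 1) of the 18 synthesis enzymes, and an efflux level, the same mean over Abca1, Abcg1 and Apoe, were used to set both sides against each other in each library. The synthesis minus efflux level was -1.78 ± 1.20 (SD, n = 12) in glioma cells and -4.66 ± 1.12 (SD, n = 12) in surrounding cells, a difference of 2.88. Most of it came from the efflux side. The mean synthesis level was 5.79 in glioma and 5.13 in surrounding cells, and the mean efflux level 7.58 and 9.79. Of the efflux genes Apoe had the largest fold change between the populations. No test was made of this score, because its genes were chosen with results known. Of glioma libraries 3145A lay highest at 0.20 and 3057E lowest at -4.04, and surrounding libraries ran from -6.38 in 3054C to -2.85 in 3145A. By stage the glioma means were -2.01, -1.69 and -1.65 and the surrounding means -4.10, -4.36 and -5.51, from asymptomatic to late symptomatic. Single tumours weighed on these means: the late glioma mean was -0.85 without 3057E, and the early glioma mean was -2.32 without 3145A, while the late and early surrounding means were -6.00 and -4.87. The surrounding libraries with the lowest synthesis levels were 3054C (4.36), 3054A (4.39), 3108C (4.66) and 3054B (4.82). The summed OPC markers stood in them at 686, 3654, 5918 and 2503 CPM and the summed microglia markers at 16157, 10809, 9970 and 13030 CPM. The next lowest, 3108D at 4.86, held more OPC markers (12500.5 CPM) and fewer microglia markers (4458 CPM). Surrounding 3228A and 3229B held microglia markers at 12070 and 11319 CPM with synthesis levels of 5.43 and 5.35, and the part of this mixture was not tested.

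**Figure D4:**
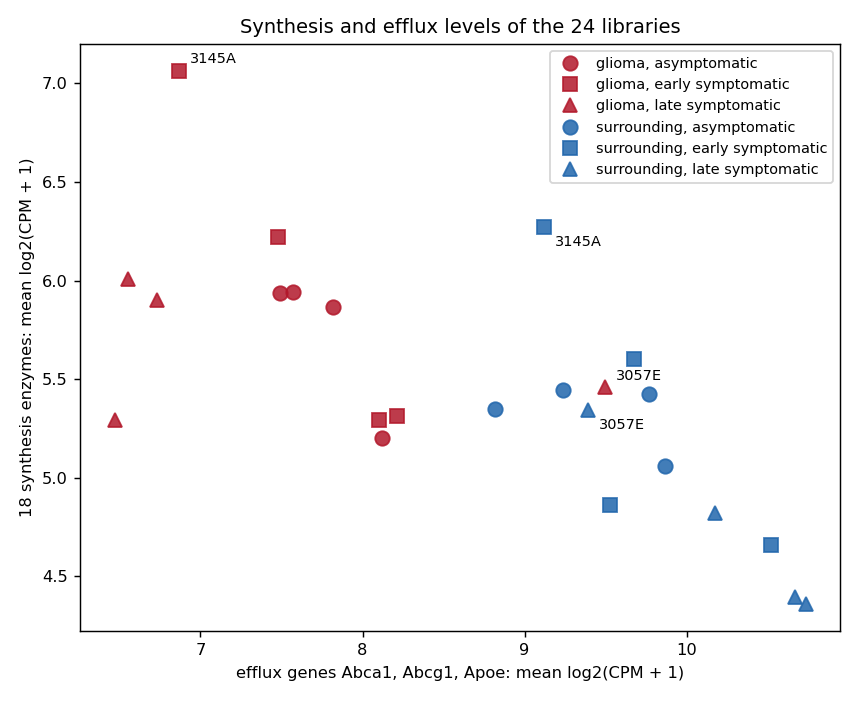
The synthesis level (vertical axis) is plotted against the efflux level (horizontal axis) for the 24 libraries, both as mean log2(CPM + 1), with colours for the population and shapes for the stage. Glioma libraries lie at the left with efflux levels from 6.47 to 8.22 except 3057E at 9.50, and surrounding libraries lie at the right from 8.82 to 10.7.

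Stages of glioma cells were compared to ask whether these genes change as tumours progress. None of the 34 genes was called in late against early symptomatic glioma cells, where edgeR called 0.273% of 16494 genes (0.2% higher and 0.0728% lower), nor in late symptomatic against asymptomatic (0.158%, with 0.109% higher and 0.0485% lower), nor in early symptomatic against asymptomatic (0%). At an unadjusted p under 0.05 edgeR gave 4, 3 and 2 of the 34 genes, DESeq2 called 2, 1 and 0, and limma voom 2, 4 and 0. Of all genes DESeq2 called 6%, 3.5% and 0% and limma voom 15.7%, 18% and 0.00606% in these comparisons. The smallest p-values for late against early symptomatic belonged to Soat1 and Fasn. All 4 late values of Soat1, at 158, 176, 157 and 138 CPM, lay above the 4 early values and above the 4 asymptomatic values, and late against early symptomatic differed by 1.35 ± 0.30 (SE, edgeR adjusted p = 0.0721). DESeq2 and limma voom called Soat1 in this comparison. The 4 late values of Fasn, at 311, 331, 338 and 297 CPM, lay below the 4 early values, with -0.53 ± 0.17 (SE, edgeR adjusted p = 0.135). For late symptomatic against asymptomatic, Soat1 differed by 1.01 ± 0.30 (SE, edgeR adjusted p = 0.159) and Srebf1 by 0.66 ± 0.24 (SE, edgeR adjusted p = 0.226), both with no overlap of the groups. For early symptomatic against asymptomatic the smallest p-values were those of Srebf1 at 0.77 ± 0.24 (SE, edgeR adjusted p = 0.936) and Mvk at 0.75 ± 0.34 (SE, edgeR adjusted p = 0.936). Groups also did not overlap for Scd2, lower in late than in early symptomatic, and for Abcg1, higher in early symptomatic than in asymptomatic. How many of all genes had stage groups without overlap was not counted, so these orders cannot be judged against that share.

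The stage differences of the synthesis enzymes in glioma cells that involve the early symptomatic group changed with the tumours left out. Their median log2 fold change was -0.57 for late against early symptomatic, -0.04 for late symptomatic against asymptomatic and 0.39 for early symptomatic against asymptomatic, where all genes tested had medians of 0.04, 0.04 and 0.02. Without 3145A these medians were 0.01, -0.04 and -0.10. Without 3108D and 3109D they were -0.90, -0.07 and 0.65. In 3145A Hmgcs1, Sqle, Cyp51 and Fdps reached the highest values of all glioma libraries.

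Without both libraries of 3057E, whose glioma library held microglia markers, efflux genes were called in glioma cells. That glioma library also stood apart in Abca1, Abcg1 and Apoe themselves. The p-values of this fit do not allow for its choice among the fits with 1 tumour left out. In late against early symptomatic glioma cells Abcg1 was then lower, with a log2 fold change of -1.37 ± 0.19 (SE, edgeR adjusted p = 0.000692), and Soat1 was higher by 1.38 ± 0.32 (SE, edgeR adjusted p = 0.0126). In late symptomatic against asymptomatic glioma cells Apoe was lower, with a log2 fold change of -1.77 ± 0.39 (SE, edgeR adjusted p = 0.011). Abcg1 was lower too at -0.94 ± 0.18 (SE, edgeR adjusted p = 0.00533), and Soat1 was higher at 1.05 ± 0.32 (SE, edgeR adjusted p = 0.0446). In these fits 17.2% and 14.7% of all genes were called. Markers of other cell types moved with these genes in the same libraries. The summed microglia markers were 120 to 143 CPM in late glioma cells without 3057E, against 153 to 240.2 CPM early symptomatic and 242 to 693 CPM asymptomatic. The summed astrocyte markers were 844 to 974 CPM late, against 1798 to 2543 CPM early symptomatic and 1561 to 2408 CPM asymptomatic, and the part of either in the result was not tested. Abca1 did not pass in either, at -1.30 ± 0.46 (SE, edgeR adjusted p = 0.0708) and -0.93 ± 0.45 (SE, edgeR adjusted p = 0.186). What remained of the late stage was 3054A, 3054B and 3054C, whose common leading digits occur nowhere else, so these digits and the stage cannot be told apart.

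**Figure D5:**
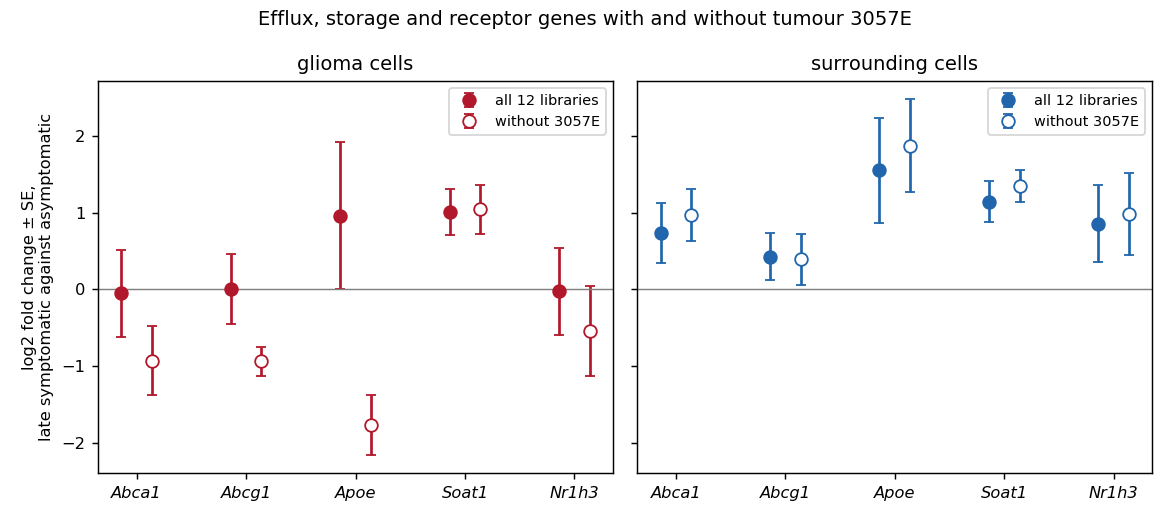
The log2 fold change of late symptomatic against asymptomatic libraries (points with bars of 1 SE) is plotted for 5 genes in glioma cells (left) and surrounding cells (right), filled for all 12 libraries and open without tumour 3057E. In glioma cells Apoe moves from 0.96 to -1.77 and Abcg1 from 0.00 to -0.94, while Soat1 stands at 1.01 and 1.05 in glioma cells and at 1.15 and 1.35 in surrounding cells.

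The difference between populations in the stage effect was also called for efflux genes without 3057E. These p-values again do not allow for the choice of the tumour left out. For late symptomatic against asymptomatic, the effect in glioma cells minus that in surrounding cells was -3.68 ± 0.78 (SE, edgeR adjusted p = 0.00631) for Apoe, -1.94 ± 0.58 (SE, edgeR adjusted p = 0.046) for Abca1 and -1.36 ± 0.38 (SE, edgeR adjusted p = 0.0322) for Abcg1, in a fit that called 7.45% of all genes. For late against early symptomatic it was -1.40 ± 0.38 (SE, edgeR adjusted p = 0.0403) for Abcg1 and -2.84 ± 0.77 (SE, edgeR adjusted p = 0.0405) for Nr1h3, in a fit that called 4.51%. With 3057E the values for late symptomatic against asymptomatic were -0.64 ± 1.20, -0.82 ± 0.71 and -0.45 ± 0.56 (SE each), and none passed.

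Stages of surrounding cells were compared for the same genes. None of the 34 was called in late against early symptomatic surrounding cells, where edgeR called 1.48% of 17616 genes (1.41% higher and 0.0681% lower), nor in late symptomatic against asymptomatic (0%) or early symptomatic against asymptomatic (0%). At an unadjusted p under 0.05 edgeR gave 16, 5 and 2 of them, DESeq2 called 3, 1 and 0, and limma voom 20, 6 and 0. The share of all genes at that unadjusted p is not given here, so the edgeR counts cannot be judged against it. Of all genes DESeq2 called 6.52%, 5.69% and 0.0568% and limma voom 29.5%, 23.3% and 0%. The smallest p-values for late against early symptomatic were again led by Soat1, whose 4 late values, 269, 278, 339 and 138 CPM, lay above the 4 early values. Soat1 differed by 1.03 ± 0.27 (SE, edgeR adjusted p = 0.0857). Nr1h3, whose late values were 4.87, 4.35, 11.8 and 4.61 CPM, also lay above the early group, with 1.70 ± 0.52 (SE, edgeR adjusted p = 0.134). For late symptomatic against asymptomatic the smallest p-values were those of Soat1 at 1.15 ± 0.27 (SE, edgeR adjusted p = 0.138) and Cyp51 at -1.10 ± 0.43 (SE, edgeR adjusted p = 0.24). For early symptomatic against asymptomatic these were Acaca at 0.59 ± 0.24 (SE, edgeR adjusted p = 0.9999) and Srebf1 at 0.44 ± 0.18 (SE, edgeR adjusted p = 0.9999), and all 4 early values of Acaca lay above the asymptomatic ones. Fasn also had groups without overlap, lower in late than in early symptomatic. Here too the share of all genes without overlap was not counted, so these orders cannot be judged against it.

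The synthesis enzymes had a median of -0.83 for late against early symptomatic surrounding cells and -0.63 for late symptomatic against asymptomatic, and those of efflux genes were 0.31 and 0.74, with 0.00 over all genes tested in both. Without 3145A the first median of the synthesis enzymes was -0.44. The surrounding library of 3057E stood apart in its markers, with summed OPC markers at 10703 CPM and summed microglia markers at 1805 CPM. In the other late surrounding libraries these stood at 686 to 3654 CPM and 10809 to 16157 CPM. The calls of the fits without 3057E do not allow for its choice among the fits with 1 tumour left out. For late against early symptomatic surrounding cells, leaving out 1 tumour gave 0 to 13 calls. Without 3145A 0 synthesis enzymes were called there. Without 3057E 13 of the 34 genes were called in late against early symptomatic surrounding cells, in a fit that called 18.9% of all genes in either direction. Those lower were Sqle (-1.84 ± 0.51), Lss (-1.82 ± 0.43), Hsd17b7 (-1.72 ± 0.42), Hmgcs1 (-1.63 ± 0.47), Cyp51 (-1.58 ± 0.40), Sc5d (-1.19 ± 0.34), Insig1 (-1.42 ± 0.39), Stard4 (-1.29 ± 0.40), Scd2 (-0.97 ± 0.29) and Srebf2 (-0.90 ± 0.27). Those higher were Nr1h3 (1.83 ± 0.55), Soat1 (1.23 ± 0.21) and Ebp (0.89 ± 0.19, SE each). In late symptomatic against asymptomatic surrounding cells without 3057E, Soat1 (1.35 ± 0.21) and Ebp (0.85 ± 0.19) were higher and Cyp51 (-1.55 ± 0.40, SE each) was lower, in a fit that called 16.4% of all genes. Markers of other cell types moved with these genes. Without 3057E the summed OPC markers were 686 to 3654 CPM in late surrounding cells against 5918 to 12500.5 CPM in early symptomatic ones, and the summed astrocyte markers 261 to 1006 CPM against 1535 to 2575 CPM. Of monocyte and macrophage markers, with all 12 libraries 5 of 10 were called higher in late against early symptomatic surrounding cells, and their summed level was 1364 to 5030 CPM late against 340 to 871 CPM early. The part of these cell types in the result was not tested.

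Reads of some of these genes can be shared with a neighbour. The exons of 11 of the 34 genes overlap another annotated gene, and in 7 of them that gene lies on the opposite strand: Hmgcs1, Idi1, Fdft1, Lss, Cyp51, Srebf1 and Scap. The sources used here do not give the strand setting of the counting, so reads of Fdft1 and Ctsb, of Cyp51 and Akap9 or of Srebf1 and Rai1 cannot be told apart. Of the further pathway genes named, Me1, Elovl6, Ggps1, Lpcat3 and Pltp also overlap a gene of the opposite strand.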

How the data were processed

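PolyA RNA of sorted cells was made into libraries with the CORALL Total RNA-Seq kit, per the labels' protocols. The submitters' processing notes name STAR 2.7.5c, RSEM 1.3.1 and the build GRCm38; the annotation release, the strand setting and the use of molecular identifiers are not given in the sources used here. The deposited table holds expected counts per gene, which the authors made by RSEM, so values need not be whole. They were rounded before testing. Totals ran from 9.08e+06 to 1.55e+07 counts per library, which bounds the precision of scarce genes such as Nr1h3. No library was a copy of another in its group, since chi-square over its degrees of freedom was 22.2 or more for every pair within a group. Pairs from different groups were not checked. Symbols came from the table, and gene positions from GENCODE M21, where 98.7% of the gene IDs were found.

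Counts were fitted with edgeR 4.0.16 (R 4.3.3; robust quasi-likelihood test, TMM factors, filterByExpr with a minimum count of 10) over all genes, with Benjamini-Hochberg adjustment and a threshold of 0.05. Populations were compared in 1 fit of 24 libraries with a mean for each of 6 groups, over the equally weighted stages or within a stage, and stages in a fit of 12 libraries for each population. The steps were tested on simulated counts. DESeq2 1.42.0, limma 3.58.1 (voom with sample weights), other filters and size factors, a fold limit, each tumour left out, both doubted tumours left out, and the tumour as a block were alternatives. Stage means of the levels without 3057E and without 3145A were added after the data were seen. CPM use TMM-scaled totals, and log levels a pseudocount of 1.

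The glioma and surrounding library of a tumour code come from 1 animal, which pairs them. The correlation of their deviations from the group means ran from 0.115 to 0.417 in 9 pairs and was 0.037 in 3108D, -0.00198 in 3109D and 0.0839 in 3054A, and in 9 of 12 tumours a library correlated best with its own partner. Tumours of 1 group are separate animals by their codes. The members, the lists, the motifs and the rule for naming genes were chosen with earlier results of these data known. Of each list of members, values in every library are given for Abca1, Abcg1, Apoe, Srebf1, Srebf2 and the 2 genes with the smallest p-values between populations, or for stages the called genes or else the 2 with the smallest p-values. Up to 3 genes of each further pathway list are named likewise, and Hmgcs1, Idi1, Fdft1, Lss, Stard4 and Scd2 by their range.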

Additional observations from a re-analysis of the deposited data

Results flagged for a closer look

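In groups of 4 libraries, 13 of 120 group values held 1 library far from the other 3, by a gap to the nearest that exceeds Dixon's critical share of the group's range, where chance gives about 1 in 20. Of these, 4 came from glioma cells of 3057E in the late symptomatic group. Abca1 stood there at 463 CPM against 95.1 to 125 CPM in the other 3 libraries, Abcg1 at 238 against 46.8 to 62.5 CPM and Apoe at 3394 against 93.7 to 196 CPM. The efflux level, mean log2(CPM + 1), was 9.50 against 6.47 to 6.73. In the same library 12 microglia markers summed to 2085 CPM, against 120 to 143 CPM in the other late glioma libraries, and their part in these values was not tested.

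Glioma cells of 3228B lay apart from the other asymptomatic gliomas in synthesis genes, with Acat2 at 42.4 CPM against 75.5 to 76.7 CPM, Sqle at 107 against 156 to 160.2 CPM and a synthesis level of 5.20 against 5.86 to 5.94. Acaca stood at 81.1 CPM in glioma 3229B against 114 to 119.6 CPM in its group. Of surrounding cells, Mvk stood at 26.2 CPM in 3145A against 12.8 to 14.4 CPM, Apoe at 12898 CPM in 3108C against 2262 to 3995 CPM and Scd1 at 528 CPM in 3229B against 132 to 170 CPM. Nr1h3 stood apart in surrounding 3108D at 2.80 CPM against 1.52 to 1.71 CPM, and in surrounding 3054C at 11.8 CPM against 4.35 to 4.87 CPM.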

How the results depend on the processing

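Of the 34 genes, 17 passed the test between the populations in each of 20 settings of the fit: Acat2, Hmgcs1, Idi1, Fdps, Fdft1, Sqle, Lss, Cyp51, Ebp, Srebf1, Srebf2, Abca1, Abcg1, Apoe, Nr1h2, Nr1h3 and Soat1. The share of all genes that passed in each of the 20 settings was not counted, so the 17 cannot be judged against it. The count called was 26, where 46.3% of all genes were called, and 6 with a fold over 2 required. Within stages it was 3 at the asymptomatic stage (DESeq2 5, limma voom 9, the tumour as a replicate block with the codes of 3108D and 3109D exchanged 6), 2 at the early symptomatic stage (limma voom 4, without 3108D and 3109D 1, the tumour as a replicate block 4, codes exchanged 12, a fold over 2 gave 1) and 15 at the late symptomatic stage (no low-count filter 9, the tumour as a replicate block 23, codes exchanged 24). Of all genes, DESeq2, limma voom and the exchanged block called 17.4%, 28.9% and 19.9% at the asymptomatic stage, limma voom 19.6% and the fit without 3108D and 3109D 6.56% at the early stage, and the exchanged block 46.7% at the late stage. The cause was not tested, apart from the fold limit, which keeps fewer genes by construction. A count in this section with no share of all genes given here or above cannot be judged against that share. Leaving out 1 tumour gave 19 to 27, 1 to 7, 1 to 3 and 5 to 18 calls for the whole comparison and the asymptomatic, early and late symptomatic stages.

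The tests of a difference between stages called 0, and limma voom called 2 (late against early symptomatic) and 1 (late symptomatic against asymptomatic), while leaving out 1 tumour gave 0 to 2 and 0 to 3. Within glioma cells late against early symptomatic gave 1 without a low-count filter, 2 by DESeq2, 2 by limma voom, 1 in a fit of all 24 libraries and 0 to 2 with 1 tumour left out. Late symptomatic against asymptomatic glioma cells gave 1 by DESeq2, 4 by limma voom and 0 to 3 with 1 tumour left out. In surrounding cells these counts were 3, 20 and 0 to 13 for late against early symptomatic and 1, 6 and 0 to 3 for late symptomatic against asymptomatic. Early symptomatic against asymptomatic gave 0 throughout. Pmvk changed sign between the populations at -0.0147 (stricter filter) and -0.0591 (without 3108D and 3109D), and ran from -0.0170 (without 3145A) to 0.154 with 1 tumour left out. Insig2 ran from -0.116 to 0.00138 (without 3108D), and the cause was not tested for either. The synthesis minus efflux difference of 2.88 ran from 2.63 to 3.13 with 1 tumour left out. Between the populations over all stages the block added Tm7sf2, Sc5d and Scap and changed no other call. With 4 libraries per group, and 3 after a tumour is left out, a difference that misses the threshold is not shown to be absent.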
